A study of Mus musculus with 11 samples.

Results

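The 38 genes described here encode enzymes of glycolysis, the pentose phosphate pathway and the citrate cycle, together with lactate dehydrogenase, pyruvate dehydrogenase and 3 of the kinases that act on pyruvate dehydrogenase. They were chosen by name as a list of central carbon enzymes; the rule uses no measured value. The reads of 37 of the 38 could be summed, all 37 passed the filter on low counts, and they stood among 12716 tested genes out of 22196 with a summed read number. Mdh1, the cytosolic malate dehydrogenase, held 0 reads in the matched transcripts and was followed only in the authors' deposited gene table.

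The samples were inguinal mammary glands of 11 mice, each sequenced as 1 library of total RNA, with estimated reads summed per gene. The 6 Knockout mice were labelled Tsc1-fl/fl; Adipoq-Cre-Tg/+ and the 5 Wild-Type mice Tsc1-fl/fl; Adipoq-Cre-+/+, so that both groups carried the floxed Tsc1 alleles and the groups differed in the Cre transgene. Adipoq-Cre is driven by the adiponectin promoter and is active in adipocytes, while RNA came from the whole gland. All mice were kept on normal chow, labelled PND16.5 (postnatal day), and killed 16 days post-delivery. The labels did not say whether the mice were littermates. The p-values for genotype judge the difference between the groups against the spread between libraries of the same group.

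Tsc1 encodes hamartin, a part of the complex that restrains mTORC1, the growth-regulating kinase complex. Glycolysis splits glucose into pyruvate, the oxidative pentose phosphate branch makes NADPH, and the citrate cycle oxidises acetyl groups or, in a tissue that makes fat, supplies citrate for export. In the mammary gland during milk production the secretory epithelium draws on all of them, since it turns glucose into lactose, fatty acids and glycerol. Several of the steps are shared by isozymes with different tissue preferences, and skeletal muscle has its own set, among them muscle phosphofructokinase Pfkm, beta-enolase Eno3, muscle phosphoglycerate mutase Pgam2 and muscle glycogen phosphorylase Pygm.

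Depth was between 25758077 and 37820269 summed reads per library. Milk protein transcripts took 67.9% to 79.0% of the TPM (a transcript level per unit of length, scaled to the same total in each library) in each library. One library stood apart in its tissue content: contractile and other skeletal muscle transcripts, 18 genes with no enzyme of the list among them, summed to 3170 CPM (read counts scaled to library size with the trimmed mean of M-values, TMM) in Knockout 1 and to 478.5 CPM in Knockout 2, against 3.17 to 329.8 CPM in the other 9. Tsc1 itself was at 10.1 ± 1.33 CPM (SD, n = 6) among Knockout and 10.7 ± 1.11 CPM (SD, n = 5) among Wild-Type glands, with overlapping groups and an edgeR adjusted p of 0.772. Which exons the deletion removes was not given in the sources used here and other cells of the gland keep the gene, so this level is no check of the genotype labels. In bulk tissue, fewer cells of a type and less RNA per cell cannot be told apart.

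One gene of the list yields 2 enzymes through a pair of mutually exclusive exons, and the sequences of these exons are shown because they are what separates the muscle-type from the general-type pyruvate kinase in these libraries. Pkm lies on chromosome 9 of GRCm38, plus strand, at 59656368 to 59679375. The M1 exon is at chr9:59675029-59675195 and the M2 exon at chr9:59675568-59675734, each 167 bases of coding sequence, and both full coding sequences are 1596 bases long. Capitals mark the 64 bases at which the exons, aligned without gaps, differ; the sequences are read 5′ to 3′ from GRCm38.
Pkm M1 exon: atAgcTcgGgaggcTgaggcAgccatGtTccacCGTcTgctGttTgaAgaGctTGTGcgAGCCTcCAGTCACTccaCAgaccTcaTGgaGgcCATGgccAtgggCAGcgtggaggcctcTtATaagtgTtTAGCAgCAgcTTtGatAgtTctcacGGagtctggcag
Pkm M2 exon: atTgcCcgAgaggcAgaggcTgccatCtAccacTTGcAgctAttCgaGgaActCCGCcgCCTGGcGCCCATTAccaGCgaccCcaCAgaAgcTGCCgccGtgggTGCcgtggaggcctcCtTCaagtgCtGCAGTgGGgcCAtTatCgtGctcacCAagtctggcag
The M1 share, given with the other isozyme shares, compares a single annotated transcript with the M1 exon and a single one with the M2 exon. It is the M1 part of the summed TPM of that pair, and any other Pkm transcript was left out.

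By level, the list was led by the second part of glycolysis. Pkm, which makes pyruvate, averaged 255.4 ± 100.2 TPM (SD over the 11 libraries), and Gapdh, the glyceraldehyde phosphate dehydrogenase often used as a reference gene, averaged 254.8 ± 50.4 TPM, so the order of these 2 was within their spread. Ldha, the lactate dehydrogenase A subunit, followed at 183.9 ± 35.4 TPM. A group of 5 genes lay between 101.4 and 119.5 TPM: the aldolases Aldoc and Aldoa, the transaldolase Taldo1, the enolase Eno1 and the pyruvate dehydrogenase beta subunit Pdhb. Their order was again within their spreads, which were 10.2 to 45.4 TPM. Among the other branches the most abundant member was the phosphofructokinase Pfkl at 55.5 ± 8.65 TPM among the hexose steps, the phosphogluconate dehydrogenase Pgd at 56.2 ± 10.2 TPM in the oxidative pentose phosphate branch and the citrate synthase Cs at 54.5 ± 4.76 TPM among the citrate cycle members with summed reads. At the low end were Pfkp, the platelet-type phosphofructokinase, at 1.61 ± 0.505 TPM and the pyruvate dehydrogenase kinase Pdk4 at 3.81 ± 2.51 TPM. These levels leave out Mdh1, which has no summed reads and stood above Cs in the authors' deposited table (8414 against 5185 normalized counts on average, not per length), and they understate Ldhb and Tpi1. Without Mdh1 and with those 2 genes as counted, the members summed to 0.168% to 0.296% of TPM per library, and to 0.692% to 0.922% once milk protein genes were set aside.

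**Figure D1:**
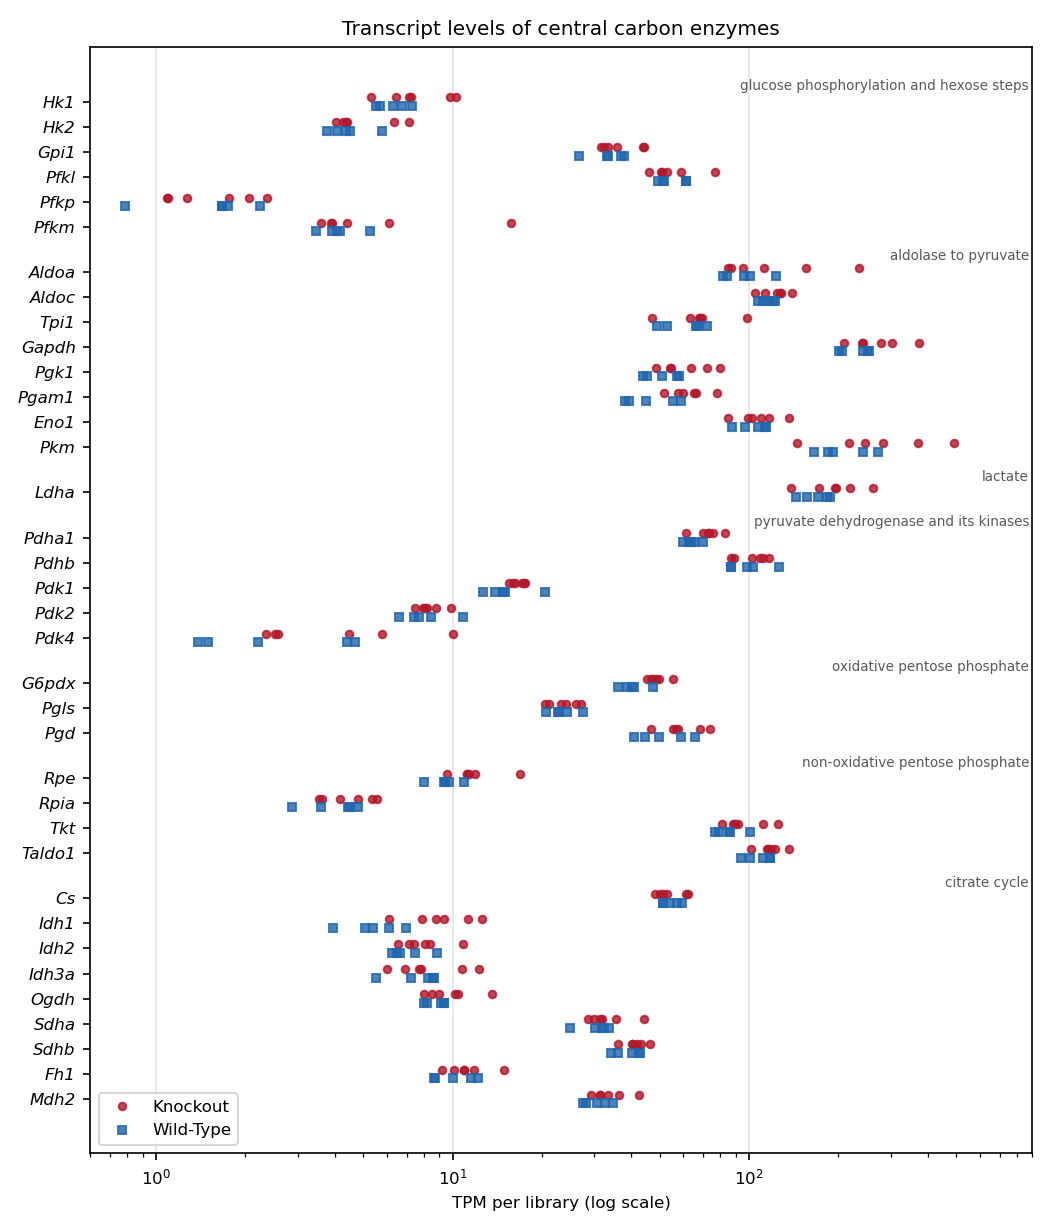
TPM of 36 central carbon enzyme genes in each of the 11 libraries, on a log axis, with circles for Knockout and squares for Wild-Type glands and genes grouped by role. Pkm, Gapdh and Ldha are the highest, the groups lie on top of each other for most genes, and Pfkm has 1 Knockout library far to the right of the rest; Ldhb and Mdh1 are left out because the matched transcripts hold few or no reads.

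None of the 37 tested members passed the edgeR quasi-likelihood test at a Benjamini-Hochberg adjusted p of 0.05 over all tested genes, and the lowest adjusted p among them was 0.263. Over all tested genes 7 passed, which is 0.055%. At an unadjusted p under 0.05 there were 3 members, 1 higher and 2 lower in Knockout glands, or 8.11% of the members against 12.4% of all tested genes (6.31% higher and 6.08% lower). That count was 8 without Wild-Type 4, 5 without Knockout 5 and 2 to 4 without any other single library. DESeq2 also called 0 members, against 1.09% of the genes to which it gave an adjusted p. Most differences were small: the median size of the log2 difference (Knockout minus Wild-Type) was 0.092 for the members and 0.131 for all tested genes, and for 30 of the 37 members the whole 95% interval lay within 0.5 log2 units of 0. Values were higher in Knockout for 12 members and lower for 25, so that 32.4% were higher against 48.3% of all tested genes; when libraries were scaled by their totals alone, which moved the median of all genes by 0.19 log2 units, the split became 32 higher and 5 lower. The counts include Ldhb and Tpi1, whose summed reads fell short of the authors' values as given with each gene. The split is a description of these libraries and was given no test.

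**Figure D2:**
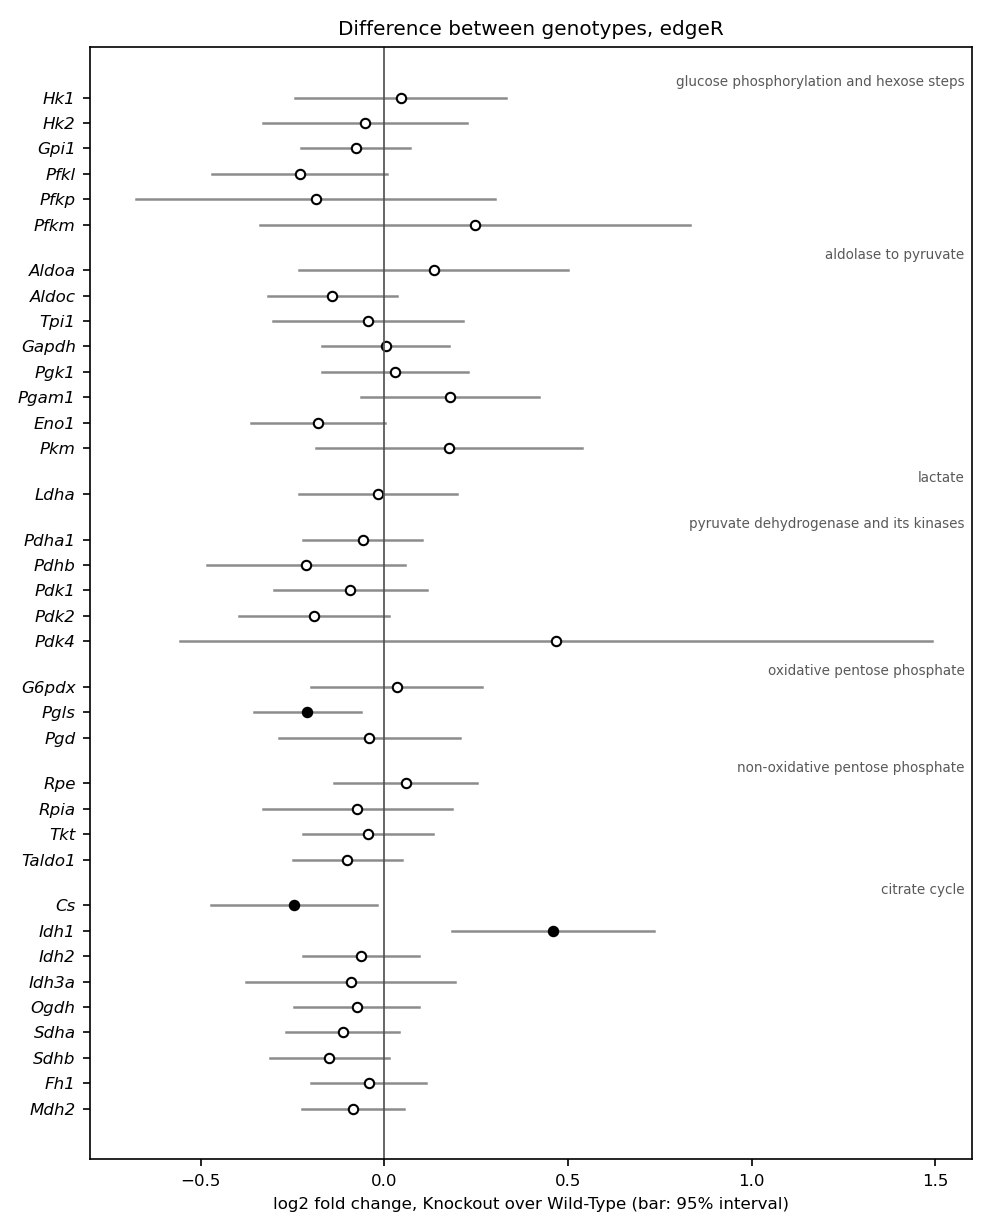
Log2 difference of Knockout over Wild-Type for the members with usable read sums, with the 95% interval of the edgeR fit; filled points have an unadjusted p under 0.05. Only Idh1, Pgls and Cs are filled, most intervals cross 0, and Pdk4, Pfkm and Pfkp have the widest intervals.

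The members listed under the citrate cycle included the one with the lowest p of all. Idh1 (chromosome 1, 65158616 to 65186500, minus strand, GRCm38) encodes the cytosolic and peroxisomal isocitrate dehydrogenase, which makes NADPH from isocitrate outside the mitochondrion. It read 11.8, 15.6, 15.8, 16.0 and 16.4 CPM in the Wild-Type libraries, and from 16.48 through a median of 21.2 to 25.0 CPM in the Knockout libraries. The groups did not overlap, although the lowest Knockout and the highest Wild-Type library lay close together, and Wild-Type 1 was the low library of its group. The log2 difference, Knockout minus Wild-Type, was 0.46 ± 0.13 (SE; 95% interval 0.18 to 0.73), a 1.38-fold higher level, with an edgeR unadjusted p of 0.00322 and an adjusted p of 0.263. DESeq2 gave an adjusted p of 0.0557, the lowest of any member in any setting tried. The difference kept its sign when each library was left out in turn (0.38 to 0.52), and was 0.33 (adjusted p = 0.413, edgeR) without Knockout 1 and Knockout 2. Its reads numbered 338 to 1078 per library.

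Idh2, the mitochondrial NADP-dependent counterpart, read 23.2 ± 0.905 CPM (SD, n = 5) among Wild-Type and 22.2 ± 1.99 CPM (SD, n = 6) among Knockout glands. Its log2 difference was -0.063 ± 0.073 (SE), with an interval from -0.22 to 0.094. Idh3a, a subunit of the NAD-dependent enzyme of the cycle itself, was at -0.091 ± 0.13 (SE). Of the 2 NADP-dependent genes together, Idh1 made up 43.3% ± 3.43 of the TPM (SD, n = 5) among Wild-Type and 53.3% ± 5.16 (SD, n = 6) among Knockout glands. The groups did not overlap: the highest Wild-Type share was 45.4% and the lowest Knockout share 46.1%. The exact two-sided permutation test over libraries gave p = 0.00649 for this share, and 0.0649 after Benjamini-Hochberg adjustment over the 10 isozyme shares tested, where the smallest p the design allows is 0.00216. On shares of reads in place of TPM the groups overlapped, at 40.3% to 54.6% for Knockout and 33.1% to 41.7% for Wild-Type libraries; the difference was 8.77 percentage points, against 10.1 on TPM, with an exact permutation p of 0.0238 before adjustment.

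Adipocyte transcripts were also higher on balance in Knockout glands, with overlapping groups. Of 11 adipocyte marker genes tested 9 were higher in Knockout glands, 7 of them at an unadjusted p under 0.05 in edgeR (6.31% of all tested genes were higher at such a p) and 0 at an adjusted one (4 in DESeq2, against 1.09% of all genes). Their summed level was 1600 to 2216 CPM in Knockout against 1160 to 1642 CPM in Wild-Type libraries. The part of adipocytes in the Idh1 difference was not tested. Over the 11 libraries Pearson's r of Idh1 with the muscle level was 0.36 (permutation p = 0.283, adjusted 0.805). Within the 6 Knockout libraries r was 0.89. It was -0.30 over the 9 libraries left after the 2 farthest from the median muscle level were set aside.

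Cs, the enzyme that joins acetyl groups to oxaloacetate and opens the cycle, differed the other way. It read 142.4, 184.0, 184.4, 199.2 and 201.7 CPM in Wild-Type and 138.2 to 183.9 CPM, with a median of 149.6, in Knockout libraries. One Wild-Type library thus lay within the Knockout range, and the remaining 4 lay above it. The log2 difference was -0.25 ± 0.10 (SE; interval -0.47 to -0.019), with an edgeR unadjusted p of 0.0357 and an adjusted p of 0.372. It was -0.18 without Knockout 1 and Knockout 2, where the unadjusted p was 0.163. A copy of the gene, Csl, shares 18.2% of the 31-base words of the Cs coding transcripts but held at most 1 read per library.

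The other citrate cycle members differed less. Sdhb, the iron-sulphur subunit of succinate dehydrogenase, read 59.2, 64.7, 65.4, 69.4 and 69.8 CPM in Wild-Type and 53.3 to 64.0 CPM, with a median of 60.6, in Knockout libraries. The groups overlapped in part, and the log2 difference was -0.15 ± 0.074 (SE; edgeR adjusted p = 0.438). The flavoprotein subunit Sdha of the same complex was at -0.11 ± 0.071 (SE). Ogdh, of the oxoglutarate dehydrogenase complex, was at -0.075 ± 0.079, the fumarase Fh1 at -0.042 ± 0.072 and the mitochondrial malate dehydrogenase Mdh2 at -0.085 ± 0.064 (SE each). Of the 9 tested members listed under the citrate cycle 8 were thus lower. Idh1 alone, whose enzyme lies outside the mitochondrion, was higher. Under library totals alone the sign turned for 7 of the 8, and Cs kept its sign at -0.048.

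Mdh1, listed with no reads in the matched transcripts, had between 6839 and 9390 normalized counts per library in the authors' deposited table. Its values there were 7712, 8556, 9102, 9277 and 9390 in Wild-Type and 6839 to 8931 in Knockout libraries. limma on log2 of these values plus 1 gave -0.12 ± 0.083 (SE) with an adjusted p of 0.62. On the authors' values Mdh1 made up 80.4% ± 0.159 (SD, n = 5) of the 2 malate dehydrogenases in Wild-Type and 79.9% ± 1.53 (SD, n = 6) in Knockout glands; these values are not per length, so the share is one of normalized counts.

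**Figure D3:**
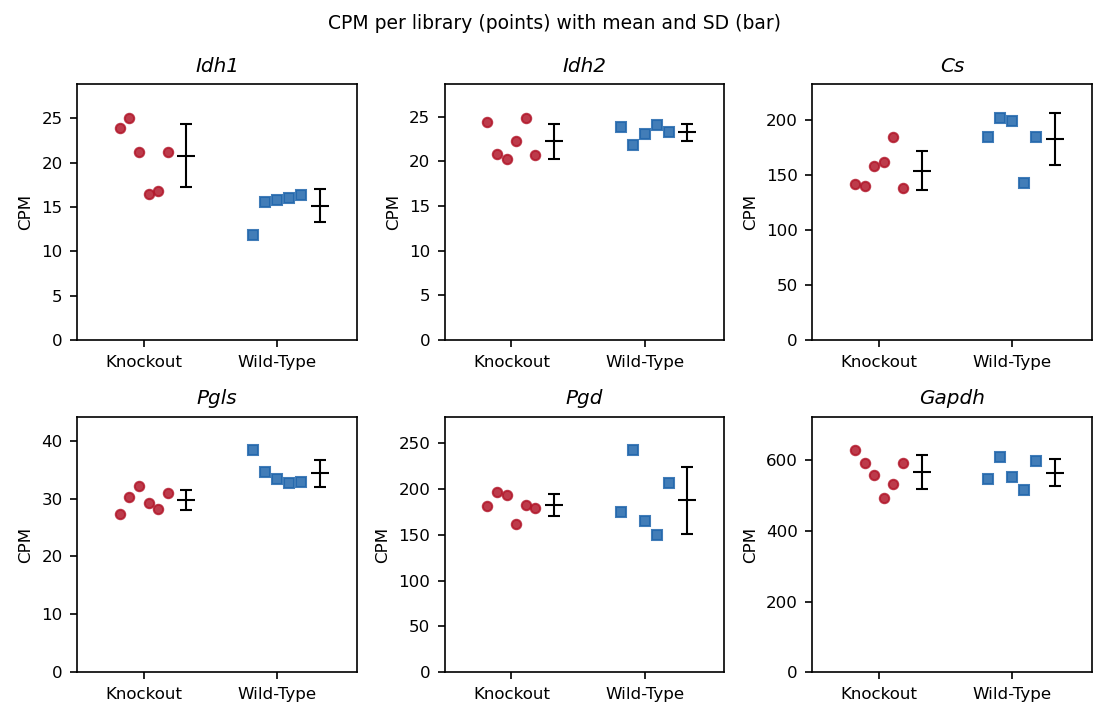
CPM in every library, with mean and SD, for Idh1, Idh2, Cs, Pgls, Pgd and Gapdh, each on an axis from 0. All Knockout points of Idh1 lie above and all of Pgls below the Wild-Type points by narrow gaps, Cs overlaps, and Idh2, Pgd and Gapdh share their range.

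Among the listed pentose phosphate members, the largest difference was at the step between the 2 dehydrogenases. Pgls (chromosome 8, 71592176 to 71601092, plus strand, GRCm38) encodes 6-phosphogluconolactonase, which opens the lactone made by glucose 6-phosphate dehydrogenase. It read 32.7, 32.8, 33.3, 34.5 and 38.4 CPM in Wild-Type libraries and 27.4 to 32.1 CPM, with a median of 29.8, in Knockout libraries. The groups did not overlap, as for Idh1 and for no other member; among all tested genes 1.32% had groups that did not overlap. The log2 difference was -0.21 ± 0.067 (SE; interval -0.36 to -0.064), with an edgeR unadjusted p of 0.00843 and an adjusted p of 0.283. Scaled by library totals alone it was -0.017.

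The 2 NADPH-making dehydrogenases on either side differed less than their errors. G6pdx, the glucose 6-phosphate dehydrogenase that commits glucose to the pathway, was at 159.2 ± 23.5 CPM (SD, n = 5) among Wild-Type and 162.9 ± 17.2 CPM (SD, n = 6) among Knockout glands, a log2 difference of 0.033 ± 0.11 (SE). Pgd read 149.7, 164.8, 174.5, 205.7 and 242.0 CPM in Wild-Type and 161.2 to 196.1 CPM, with a median of 181.6, in Knockout libraries. The Wild-Type libraries spread around the Knockout ones on both sides, and the log2 difference was -0.040 ± 0.11 (SE; interval -0.29 to 0.21).

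In the non-oxidative branch, which shuffles carbon between sugar phosphates, 0 of 4 members had an unadjusted p under 0.05. Taldo1, its most abundant gene, read 219.0, 236.7, 245.8, 256.2 and 256.2 CPM in Wild-Type and 209.1 to 244.6 CPM, with a median of 225.0, in Knockout libraries. The 3 highest libraries were Wild-Type and the lowest was Knockout, with overlap between, and the log2 difference was -0.10 ± 0.069 (SE). The transketolase Tkt was at -0.045 ± 0.082, the ribose 5-phosphate isomerase Rpia at -0.074 ± 0.12 and the ribulose phosphate epimerase Rpe at 0.058 ± 0.090 (SE each). Rpe read 9.32, 10.4, 11.7, 12.2 and 12.8 CPM in Wild-Type and 11.1 to 12.7 CPM, with a median of 11.4, in Knockout libraries, which lay inside the Wild-Type range.

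Among the enzymes that trap glucose and commit it to glycolysis, 0 of 6 had an unadjusted p under 0.05. Pfkl, the liver-type phosphofructokinase that held most of the phosphofructokinase transcripts here, read 280.7, 378.0, 391.5, 397.0 and 423.8 CPM in Wild-Type and 271.9 to 362.1 CPM, with a median of 316.3, in Knockout libraries. Wild-Type 4, the low library, lay among the Knockout libraries and the other 4 above them. The log2 difference was -0.23 ± 0.11 (SE; interval -0.47 to 0.0071) with an edgeR adjusted p of 0.416. The hexokinases Hk1 and Hk2, which phosphorylate glucose, were at 0.044 ± 0.13 and -0.053 ± 0.13 (SE each). The glucose phosphate isomerase Gpi1 was at -0.078 ± 0.068 and Pfkp at -0.19 ± 0.22 (SE each).

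From aldolase to pyruvate, 5 of 8 members were higher and 3 lower, with 0 at an unadjusted p under 0.05. Gapdh read 517.2, 547.3, 553.7, 599.4 and 608.4 CPM in Wild-Type and 494.1 to 629.3 CPM, with a median of 575.3, in Knockout libraries. The groups covered nearly the same range, and the log2 difference was 0.0041 ± 0.080 (SE; interval -0.17 to 0.18). It turned to -0.011 with the muscle level as a covariate and to -0.043 without Knockout 1 and Knockout 2. Gapdh shares 81.3% of its 31-base words with annotated copies, to the most abundant of which 0.11% of the Gapdh reads were assigned. The phosphoglycerate kinase Pgk1 was at 0.029 ± 0.092 (SE).

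Eno1, the general enolase, read 267.7, 287.6, 329.9, 330.1 and 345.2 CPM in Wild-Type and 248.3 to 298.9 CPM, with a median of 280.9, in Knockout libraries. The 3 highest libraries were Wild-Type and the ranges met below them, for a log2 difference of -0.18 ± 0.085 (SE; edgeR adjusted p = 0.412). Eno1 shares 79.6% of its words with the copy Eno1b, which was assigned 0 to 9 reads per library, so the split between these copies is uncertain. Aldoc read 250.4, 280.3, 284.2, 284.8 and 316.1 CPM in Wild-Type and 232.7 to 288.9 CPM, with a median of 256.5, in Knockout libraries, a log2 difference of -0.14 ± 0.081 (SE).

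Pgam1, the general phosphoglycerate mutase, read 52.1, 59.7, 60.2, 75.5 and 84.8 CPM in Wild-Type and 69.7 to 79.6 CPM, with a median of 76.0, in Knockout libraries. The Knockout libraries were close together inside the wider Wild-Type range, and the log2 difference was 0.18 ± 0.11 (SE; edgeR adjusted p = 0.532). Pkm read 617.0, 664.9, 687.1, 860.7 and 899.1 CPM in Wild-Type and 541.9 to 1078 CPM, with a median of 869.2, in Knockout libraries. Both the lowest and the highest library were Knockout, and the log2 difference was 0.18 ± 0.17 (SE), or 0.015 without Knockout 1 and Knockout 2. The triose phosphate isomerase Tpi1 was at -0.044 ± 0.12 (SE) in the summed reads, which held 58.7% of the level in the authors' deposited table, and at -0.025 ± 0.11 (SE, limma, adjusted p = 0.951) in that table.

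At the lactate step, Ldha read 326.4, 367.2, 386.3, 414.7 and 428.3 CPM in Wild-Type and 303.3 to 421.8 CPM, with a median of 394.2, in Knockout libraries. The ranges were nearly the same, with a log2 difference of -0.017 ± 0.10 (SE; interval -0.23 to 0.20). For Ldhb, the heart-type subunit, the matched transcripts held 0 to 14 reads per library, or 1.11% of the level in the authors' deposited table, and the difference in those reads, 0.59 ± 0.72 (SE), is not usable. In the authors' table Ldhb was at 419.7, 438.4, 466.5, 582.4 and 598.7 normalized counts in Wild-Type and 475.8 to 713.8 in Knockout libraries, and limma gave 0.14 ± 0.13 (SE) with an adjusted p of 0.71. On those values Ldhb was 4.05% ± 0.735 (SD, n = 5) of lactate dehydrogenase in Wild-Type and 4.5% ± 0.61 (SD, n = 6) in Knockout glands.

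Pyruvate dehydrogenase carries pyruvate into the citrate cycle, and its kinases switch it off by phosphorylation. Pdhb read 172.2, 224.3, 254.8, 263.1 and 291.3 CPM in Wild-Type and 178.0 to 234.3 CPM, with a median of 208.6, in Knockout libraries. The 3 highest libraries were Wild-Type, but so was the lowest, and the log2 difference was -0.21 ± 0.12 (SE; edgeR adjusted p = 0.51). The alpha subunit Pdha1 was at -0.059 ± 0.074 (SE). Of the kinases, Pdk2 read 18.7, 22.4, 25.5, 26.5 and 27.0 CPM in Wild-Type and 19.9 to 23.3 CPM, with a median of 20.7, in Knockout libraries, a log2 difference of -0.19 ± 0.094 (SE; edgeR adjusted p = 0.432). Pdk1, the most abundant kinase, was at -0.092 ± 0.096 (SE).

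Pdk4, the kinase known to be induced by fasting and fatty acids, varied more between animals than any other well-measured member. It read 4.05, 4.07, 6.97, 10.3 and 14.2 CPM in Wild-Type and 4.84 to 22.4 CPM, with a median of 8.94, in Knockout libraries. The highest library held 5.54 times the level of the lowest, against 1.22 times for Idh2 at the other end of the list. The log2 difference of 0.47 ± 0.46 (SE) had an interval from -0.56 to 1.49, and leaving out 1 library moved it between 0.14 (without Knockout 2) and 0.79 (without Wild-Type 1). Pdk4 made up 10.2% ± 4.39 of the kinase TPM (SD, n = 5) among Wild-Type and 14.9% ± 8.07 (SD, n = 6) among Knockout glands.

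Muscle-type enzymes were compared with the muscle content of each library as a check of the tissue. Pfkm read 21.1, 21.5, 22.4, 22.9 and 23.3 CPM in Wild-Type libraries and 19.2 to 54.8 CPM, with a median of 20.3, in Knockout libraries. Knockout 1 alone was high; the other 5 Knockout libraries did not exceed 24.1 CPM. The log2 difference of 0.25 ± 0.27 (SE; edgeR adjusted p = 0.743) was -0.099 without Knockout 1 and -0.16 without Knockout 1 and Knockout 2. Aldoa, the aldolase of muscle that other tissues also use, read 244.6, 247.1, 248.5, 278.0 and 278.4 CPM in Wild-Type and 213.0 to 434.6 CPM, with a median of 253.2, in Knockout libraries. Here Knockout 1 and Knockout 2 (333.9 CPM) were above all other libraries, and the log2 difference of 0.14 ± 0.17 (SE) became -0.018 without Knockout 1 and -0.13 without both.

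The 3 muscle enzymes outside the list moved further. Eno3 read 2.54, 3.72, 4.84, 8.51 and 8.72 CPM in Wild-Type and 1.86 to 67.4 CPM, with a median of 3.3, in Knockout libraries. Pgam2 read 0, 0.246, 0.251, 1.76 and 2.14 CPM in Wild-Type and 0 to 18.03 CPM, with a median of 0.291, in Knockout libraries. Pygm read 0.754, 1.05, 2.13, 7.9 and 8.62 CPM in Wild-Type and 0.631 to 89.3 CPM, with a median of 1.71, in Knockout libraries. For each of the 3 genes Knockout 1 was highest and Knockout 2 next, and the remaining Knockout libraries lay in the lower part of the Wild-Type range or below it. Their edgeR adjusted p-values were 0.571 to 0.604, and without both libraries the log2 differences of Eno3 and Pygm were -1.12 and -1.70.

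Over the 11 libraries, the log2 level of these 3 genes followed the muscle level, the mean centred log2 CPM of the contractile list. Pearson's r was 0.99 for Pgam2, 0.96 for Pygm and 0.92 for Eno3, and 0.98, 0.93 and 0.86 without the 2 libraries farthest from the median. Spearman's rho was 0.98, 0.95 and 0.91, and the permutation p of r was 1e-05, 1e-05 and 4e-05, where 1e-05 is the smallest that 100000 resamples can give. Among the 37 members, 2 had an adjusted permutation p of r under 0.05, in a family of 37. Aldoa had r = 0.81 (permutation p = 0.00133, adjusted 0.0405) and rho = 0.70 (permutation p = 0.0196, adjusted 0.472). Pfkm had r = 0.72 (permutation p = 0.00219, adjusted 0.0405) and rho = 0.68 (permutation p = 0.0255, adjusted 0.472). Without the 2 farthest libraries r was 0.53 for Aldoa (exact permutation p = 0.147) and 0.50 for Pfkm (exact permutation p = 0.175). Both relations were thus weaker there, and the 9 libraries left are too few to resolve them. Within the 6 Knockout libraries r was 0.97 for Aldoa and 0.83 for Pfkm, but it was also 0.93 for Gapdh, 0.91 for Pkm, 0.89 for Idh1 and 0.81 for Pgk1, and it was -0.96 for Pdk1 and -0.82 for Pdk2, so a high value there was not particular to the muscle-type genes. No correlation was computed within the 5 Wild-Type libraries. With the muscle level as a covariate in edgeR, the log2 differences were 0.038 for Aldoa, 0.084 for Pfkm and 0.42 for Idh1.

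**Figure D4:**
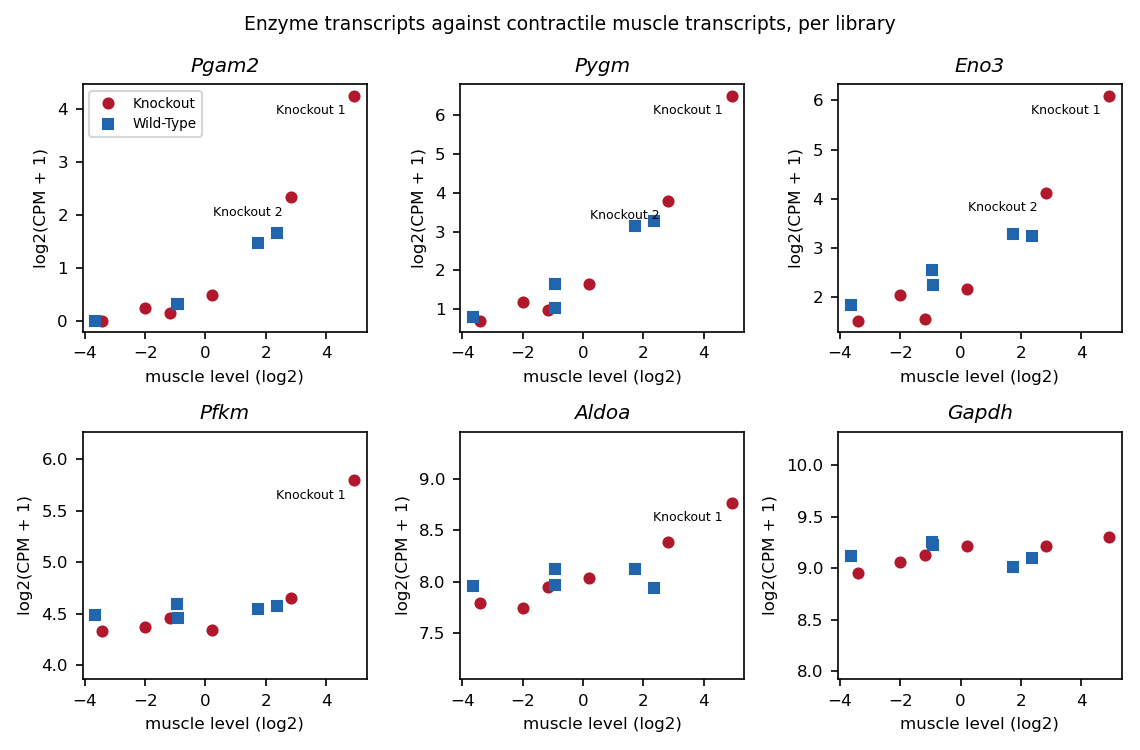
Log2(CPM + 1) of 3 muscle-type enzymes outside the list and of Pfkm, Aldoa and Gapdh against the muscle level of the library (mean centred log2 CPM of contractile transcripts), with circles for Knockout and squares for Wild-Type. Pgam2, Pygm and Eno3 climb along the axis over the 11 libraries, Pfkm stands out only in Knockout 1, and Gapdh stays within a narrow band; the vertical scale differs between panels.

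Isozyme shares ranked which gene held the transcripts of each step, and the groups overlapped for each of the 9 shares other than that of Idh1. Pfkl held 89.3% of phosphofructokinase TPM over all libraries, with Pfkm at 6.93% ± 1.41 (SD, n = 5) among Wild-Type and 9.09% ± 3.95 (SD, n = 6) among Knockout glands. Of hexokinase, Hk1 held 57.8% and Hk2 39.6%. Aldoc held 54.5% ± 3.37 (SD, n = 5) of aldolase in Wild-Type and 50.6% ± 7.85 (SD, n = 6) in Knockout glands, where the low libraries were Knockout 1 at 37.4% and Knockout 2 at 44.9%. Eno3 took 24.0% of enolase and Pgam2 18.6% of phosphoglycerate mutase in Knockout 1, against at most 7.68% and 4.95% elsewhere. Of the summed TPM of the M1 and the M2 transcript of Pkm, M1 made up 5.99% ± 0.469 (SD, n = 5) in Wild-Type glands. In Knockout glands it made up 6.68% ± 1.46 (SD, n = 6), and the highest were again Knockout 1 at 8.78% and Knockout 2 at 7.57%. The exact permutation tests of these other 9 shares gave adjusted p-values of 0.532 to 0.688.

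**Figure D5:**
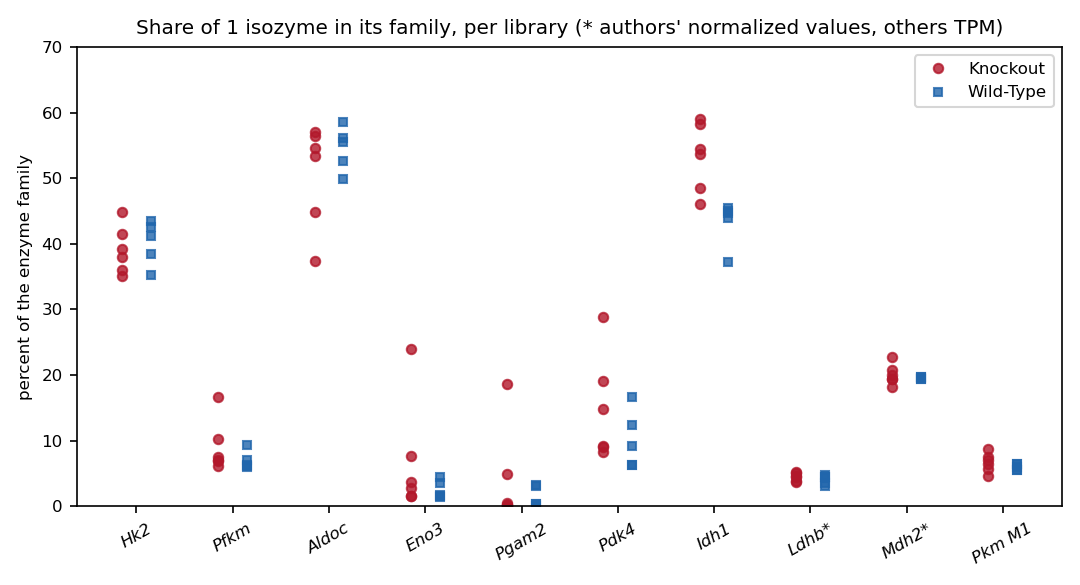
Percent of its enzyme family held by 1 isozyme in each library (hexokinase Hk2, phosphofructokinase Pfkm, aldolase Aldoc, enolase Eno3, phosphoglycerate mutase Pgam2, pyruvate dehydrogenase kinase Pdk4, NADP isocitrate dehydrogenase Idh1, lactate dehydrogenase Ldhb, malate dehydrogenase Mdh2, pyruvate kinase Pkm with the M1 exon). The Idh1 shares of Knockout lie at 46.1% or more and those of Wild-Type at 45.4% or less; the single high circles of Eno3 and Pgam2 are Knockout 1.

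Of 73 further genes of these pathways, covering other isozymes, carriers, shuttles and regulators, 64 were tested: 28 were higher and 36 lower in Knockout glands, and 0 passed in edgeR (2 in DESeq2, which called 1.09% of all genes). At an unadjusted p under 0.05 there were 7, or 10.9%, against 12.4% of all tested genes. The pair of genes of the mitochondrial pyruvate carrier, through which pyruvate enters the organelle, were both among the lower ones. Mpc2 read 49.1, 61.2, 63.5, 66.5 and 69.0 CPM in Wild-Type and 42.0 to 52.5 CPM, with a median of 46.0, in Knockout libraries. Apart from Wild-Type 4 the groups did not overlap, and the log2 difference was -0.40 ± 0.098 (SE; adjusted p = 0.218 in edgeR and 0.0271 in DESeq2). Mpc1 read 42.3, 42.6, 48.4, 58.1 and 59.5 CPM in Wild-Type and 29.8 to 46.2 CPM in Knockout libraries, with a log2 difference of -0.36 ± 0.12 (SE; adjusted p = 0.31 in edgeR and 0.19 in DESeq2).

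H6pd, the enzyme that runs the first oxidative pentose phosphate steps inside the endoplasmic reticulum, read 2.63, 3.23, 3.54, 3.73 and 4.05 CPM in Wild-Type and 3.98 to 6.86 CPM, with a median of 5.13, in Knockout libraries. Only the lowest Knockout library fell below the highest Wild-Type one, and the log2 difference was 0.60 ± 0.16 (SE; adjusted p = 0.23 in edgeR and 0.0435 in DESeq2). The other 2 leading genes on the higher side were Pdpr, a regulatory subunit of the pyruvate dehydrogenase phosphatase, at 0.54 ± 0.24, and Hif1a, the hypoxia-inducible factor subunit that drives many glycolytic genes, at 0.33 ± 0.17 (SE each, edgeR adjusted p of 0.396 and 0.468). The ribokinase Rbks was at -0.46 ± 0.18 (SE; edgeR adjusted p = 0.35). Slc2a1, the glucose carrier GLUT1, was at -0.21 ± 0.10 (SE; edgeR adjusted p = 0.431), with 101.1 ± 5.54 CPM (SD, n = 5) among Wild-Type and 87.3 ± 14.1 CPM (SD, n = 6) among Knockout glands. Srebf1, a regulator of fat synthesis that mTORC1 is known to activate, was at -0.10 ± 0.24 (SE), and 0.087 under library totals alone.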

How the data were processed

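Total RNA from the inguinal mammary glands of 6 Knockout and 5 Wild-Type mice was made into strand-specific libraries, per the labels' protocols. The authors deposited, for each library, estimated counts and TPM per transcript; Salmon 1.3.0, DESeq2 1.28.1 and GRCm38.p6 are named in the submitters' processing notes. Their deposited table of gene values over the 11 libraries is named as normalized counts and was used as a signal on the authors' scale. Transcripts were assigned to genes with GENCODE M21: 57452 of 58204 matched, and the 752 others held 0.195% to 0.265% of the reads. Sums were rounded. Mdh1, Ldhb and Tpi1 fell far below the authors' table, so values from that table are given for them, in place of or beside the sums, tested with limma 3.58.1 on log2 of value plus 1. Ldhb, Tpi1 and, among further pathway genes, Esrra (20.6% of the authors' level) stay in the counts as summed.

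The main test was edgeR 4.0.16 (R 4.3.3), a robust quasi-likelihood F test with TMM factors on 12716 genes kept by filterByExpr, with Benjamini-Hochberg adjustment; the common biological coefficient of variation was 24.1%. CPM are scaled by TMM and compare libraries; TPM compare genes. DESeq2 1.42.0 was an alternative. Fits were tested on simulated data. Isozyme shares used exact permutation tests (scipy 1.17.1). The difference given is log2 of Knockout over Wild-Type. Groups came from the sample titles, which carry replicate numbers; same-numbered libraries did not deviate together. The rule for the members names genes and uses no measured value, but members and lists were chosen with earlier results of these data known. Every member is named; the 8 of lowest p on either side, the most abundant of each role and the muscle-type genes have every Wild-Type value and the lowest, median and highest Knockout value, and of the further pathway genes the 3 of lowest p on either side, Slc2a1, Hif1a and Srebf1 are named.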

Additional observations from a re-analysis of the deposited data

Results flagged for a closer look

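Among 100 sets of values examined, in each of which chance flags about 1 in 20 and so 5.0 in all, 8 had a library far from the rest of its group by Dixon's ratio, and 6 of these were in Knockout 1. In that library Pfkm read 54.76 CPM against 19.2 to 24.1 CPM in the other Knockout libraries. Eno3 read 67.37 CPM there against 1.86 to 16.4 CPM, Pgam2 18.03 CPM against 0 to 4.02 CPM, and Pygm 89.31 CPM against 0.631 to 12.9 CPM. The Eno3 share of enolase was 24.04% against 1.49% to 7.68%, and the Pgam2 share of phosphoglycerate mutase 18.59% against 0% to 4.95%. The contractile muscle transcripts of this library summed to 3170 CPM, the highest of the 11.

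The other 2 flags were in Wild-Type 1, where Idh1 read 11.84 CPM against 15.6 to 16.4 CPM in the other Wild-Type libraries, and where its share of the NADP isocitrate dehydrogenases was 37.2% against 44.0% to 45.4%. Without this library the log2 difference of Idh1 was 0.38 and the difference in share 8.54 percentage points.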

How the results depend on the processing

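The count of members past an adjusted p of 0.05 was 0 in all 23 alternative settings, and the signs of 11 of the 37 held in every setting that gave them a value, Idh1, Pgls and Cs among them; Ldhb is counted here although its few reads gave no value in some settings. Over all genes the count, 7 in edgeR, was 146 with DESeq2, 12 with the muscle level as covariate, 13 without Knockout 1 and Knockout 2 (chosen after seeing the data), and 0 to 28 when each library was left out (0 without Knockout 3 and without Knockout 6, 2 without Knockout 1 or Wild-Type 3, 13 without Wild-Type 1 or Wild-Type 5, 14 without Wild-Type 4, 28 without Knockout 2); the causes were not tested. With the replicate number as a block, over the 10 libraries whose number both groups share, it was 0 (1023 genes at an unadjusted p under 0.05), and 0 on the same libraries without the block (1319 such genes). The numbers did not pair the samples: correlations of same-numbered deviations were -0.023, -0.096, 0.19, -0.22 and -0.21, and the block turned only Gapdh (-0.0049; -0.0024 without the block).

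Library totals alone gave opposite signs for Hk2 0.13, Gpi1 0.12, Pfkp 0.012, Aldoc 0.053, Tpi1 0.16, Eno1 0.019, Ldha 0.19, Pdha1 0.14, Pdk1 0.083, Pgd 0.16, Rpia 0.12, Tkt 0.15, Taldo1 0.090, Idh2 0.13, Idh3a 0.12, Ogdh 0.13, Sdha 0.084, Sdhb 0.039, Fh1 0.15, Mdh2 0.11, Srebf1 0.087 and Tsc1 0.10, beside the shift of 0.19 of all genes. Leaving out Knockout 1 and Knockout 2 did so for Hk2 0.00038, Pfkm -0.16, Aldoa -0.13, Gapdh -0.043, Pgk1 -0.0085, Pdk1 0.018, Srebf1 0.031, Eno3 -1.12 and Pygm -1.70, and the muscle covariate for Gapdh -0.011 and Pgam2 -0.058.

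With 1 library left out, the range crossed 0 for Hk1 (-0.075 to 0.11), Hk2 (-0.15 to 0.023), Pfkm (-0.099 to 0.33), Aldoa (-0.018 to 0.21), Tpi1 (-0.088 to 0.032), Gapdh (-0.022 to 0.041), Pgk1 (-0.028 to 0.087), Ldha (-0.066 to 0.040), G6pdx (-0.035 to 0.10), Pgd (-0.11 to 0.068), Fh1 (-0.065 to 0.0050), Srebf1 (-0.29 to 0.012), Eno3 (-0.075 to 1.71) and Pygm (-0.19 to 2.59), and in shares for Pgam2 (-0.24 to 3.48 percentage points) and Mdh2 (-0.042 to 0.86). On log2 TPM in place of CPM, r with the muscle level was positive for 36 of 37 members (17 on CPM): 0.92 for Pgls (-0.061 on CPM), 0.83 for Gpi1, 0.82 for Aldoa and 0.80 for Pfkm, so on that scale it does not set the muscle-type genes apart. Reads numbered 97 to 658 per library for Pdk4 and 160 to 411 for Pfkp, against 14542 to 28338 for Gapdh. Rpia, at 167 to 323 reads, had an SE of 0.12, against 0.22 for Pfkp and 0.46 for Pdk4. The part of read number in these errors was not tested.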

Other observations

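Marker genes of other cell types are given as counts by direction, all with 0 genes past an adjusted p of 0.05 in edgeR and in DESeq2; over all tested genes 12.4% had an unadjusted p under 0.05 (6.31% higher and 6.08% lower). Secretory epithelium and milk genes were lower in Knockout glands for 10 of 10 (0 at an unadjusted p under 0.05 in edgeR), fibroblast genes higher for 6 of 6 (2 so) and myoepithelial genes higher for 6 of 6 (1 so). Skeletal muscle genes were higher for 17 of 17 tested (0 at such a p), with the highest summed levels in Knockout 1 and Knockout 2. Of the thermogenic adipocyte list 1 of 3 tested was higher and 2 were lower, with 1 in each direction at such a p. Of endothelium 4 of 5 were higher, of macrophage 2 of 5 and of blood 1 of 5. A single macrophage gene had such a p, and that gene was lower. B cell genes were lower for 5 of 5, each at an unadjusted p under 0.05, and their summed level ran from 1.03 to 15.6 CPM among Knockout and from 2.21 to 82.9 CPM among Wild-Type libraries, and T cell genes lower for 4 of 4. The part of these cells in the enzyme values was not tested.

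Among citrate cycle subunits outside the list, Idh3g, a regulatory subunit of the NAD-dependent isocitrate dehydrogenase, was the 1 of 9 whose groups did not overlap, as for 1.32% of all tested genes; it was singled out after its values were seen. It read 76.4 to 81.5 CPM in Wild-Type and 70.4 to 75.3 CPM in Knockout libraries, a log2 difference of -0.10 ± 0.052 (SE; edgeR adjusted p = 0.444).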
